A study of Mus musculus with 6 samples.

Results

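The transcripts described here are 10 long non-coding RNAs of mouse whose introns carry small nucleolar RNAs (snoRNAs), namely Gas5, Snhg1, Snhg3, Snhg5, Snhg6, Snhg8, Snhg12, Snhg15, Snhg17 and Snhg18. They were chosen by name from the 42450 gene rows of a total RNA count table. A row was matched for 8 of the 10, and Snhg1 and Snhg8 are not analysed here as hosts, although the snoRNAs in their introns are. The table holds 6 libraries of mouse embryonic stem cells, cells of the early embryo that can give rise to all tissues. The WT group comprised 3 libraries of the male line E14tg2a.4, and the Srrm2+/- group comprised 3 libraries of the line CG0630, a gene-trap derivative of E14tg2a.4 that carries a truncation in exon 1 of one Srrm2 allele. SRRM2 is a large serine- and arginine-rich protein of nuclear speckles and of the spliceosome, and the comparison asks which RNAs change when its dosage is reduced.

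Both lines were grown on gelatin with leukemia inhibitory factor (LIF) and kept in serum-free medium with LIF before collection. The Srrm2+/- group is a single gene-trap line, and its cultures were frozen at earlier passages than the WT cultures, so genotype, clone and passage cannot be told apart. The libraries held 54151433 to 58499765 estimated counts in WT and 61022915 to 69933421 in Srrm2+/-. Srrm2 itself was at 91.2, 98.3 and 97.7 CPM (normalised counts scaled to a common library size) in WT and 62.3, 56.2 and 59.6 CPM in Srrm2+/- (log2 fold change -0.69 ± 0.05 SE, adjusted p = 2.38e-05). All 6 embryonic stem cell markers examined had counts, 4 of them changed, and their summed level was 4041 to 4162 CPM in WT and 3478 to 3553 CPM in Srrm2+/-. Of 5 fibroblast markers, 4 changed, with a sum of 3.21 to 3.34 CPM in WT and 6.60 to 10.3 CPM in Srrm2+/-. Of 4 trophectoderm markers 1 changed, with a sum of 1.72 to 1.89 CPM in WT and 2.26 to 2.61 CPM in Srrm2+/-. No marker of primitive endoderm (5) or blood (3) passed the test, and their sums stayed at or below 2.15 CPM in each library. No marker of these lists was at 0 in all libraries. The part of these shifts in the values below was not tested.

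Most vertebrate snoRNAs are not transcribed from promoters of their own. They lie in the introns of longer genes, and each is trimmed out of the spliced and opened intron by exonucleases while a set of core proteins protects its ends. Box C/D snoRNAs guide 2′-O-methylation and H/ACA snoRNAs guide pseudouridylation of ribosomal and spliceosomal RNA, and a few, such as U17 and U22, are needed for cleavage of the ribosomal RNA precursor. In the non-coding hosts the spliced exons encode no conserved protein and are for the most part short-lived, many of them being degraded by nonsense-mediated decay after translation of short reading frames. A spliced host and its snoRNAs thus come from one primary transcript but are separate RNAs.

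The GENCODE M21 annotation (mouse build GRCm38) places 34 snoRNA genes within the spans of the 10 hosts and on their strand. The snoRNAs of the box C/D class are shown first, because they include those without any counts as well as Snord87, none of whose words occurs in its host. Capitals mark the letters TGATGA where they lie in the first 18 bases and CTGA where they lie in the last 12 bases, both searched on the RNA strand, and sequences without both are left in lower case.
Gm22357, chr1:161036057-161036139, plus strand, in Gas5: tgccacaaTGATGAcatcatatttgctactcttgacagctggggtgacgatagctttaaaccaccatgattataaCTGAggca
Snord47, chr1:161038082-161038158, plus strand, in Gas5: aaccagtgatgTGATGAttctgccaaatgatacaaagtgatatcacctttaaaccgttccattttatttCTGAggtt
Snord99, chr4:132310691-132310764, plus strand, in Snhg12: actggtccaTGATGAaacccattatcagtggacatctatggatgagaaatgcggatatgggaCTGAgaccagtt
Snord50a, chr9:88521529-88521600, minus strand, in Snhg5: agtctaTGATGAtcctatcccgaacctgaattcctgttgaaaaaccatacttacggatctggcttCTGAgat
Snord50b, chr9:88521797-88521868, minus strand, in Snhg5: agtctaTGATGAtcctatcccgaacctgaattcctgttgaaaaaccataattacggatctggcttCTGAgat
Snord87, chr1:9942463-9942549, minus strand, in Snhg6: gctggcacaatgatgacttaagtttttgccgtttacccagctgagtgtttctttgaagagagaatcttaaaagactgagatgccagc
Snord22, chr19:8725866-8725991, plus strand, in Snhg1: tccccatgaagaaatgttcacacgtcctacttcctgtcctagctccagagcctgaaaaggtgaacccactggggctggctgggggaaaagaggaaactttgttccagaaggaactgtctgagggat
Snord50a and Snord50b, the U50 snoRNAs of Snhg5, had the same capitals and the same length. By these letters 16 of the 34 were of the C/D kind, against 41.5% of 697 annotated snoRNA genes that lie within another gene, and a sequence without the letters in these windows is not thereby outside the class.

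The H/ACA snoRNAs with the clearest differences came from Snhg12, Snhg15, Snhg17 and Snhg8 and are shown for that reason. Capitals mark the letters ACA in the last 6 bases of a sequence longer than 100 bases.
Snora16a, chr4:132309465-132309600, plus strand, in Snhg12: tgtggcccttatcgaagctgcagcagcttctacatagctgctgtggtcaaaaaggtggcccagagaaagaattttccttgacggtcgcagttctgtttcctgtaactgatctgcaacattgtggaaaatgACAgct
Snora44, chr4:132309941-132310069, plus strand, in Snhg12: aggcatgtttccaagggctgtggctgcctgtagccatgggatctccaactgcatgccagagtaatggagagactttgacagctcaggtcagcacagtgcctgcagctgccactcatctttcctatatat
Snora61, chr4:132310240-132310369, plus strand, in Snhg12: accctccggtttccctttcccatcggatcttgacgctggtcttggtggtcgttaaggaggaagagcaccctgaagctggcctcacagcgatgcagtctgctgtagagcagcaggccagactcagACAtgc
Snora9, chr11:6528033-6528165, minus strand, in Snhg15: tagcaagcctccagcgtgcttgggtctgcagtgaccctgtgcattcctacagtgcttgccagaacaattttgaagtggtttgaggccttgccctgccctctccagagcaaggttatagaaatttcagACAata
Gm24411, chr2:158356424-158356554, minus strand, in Snhg17: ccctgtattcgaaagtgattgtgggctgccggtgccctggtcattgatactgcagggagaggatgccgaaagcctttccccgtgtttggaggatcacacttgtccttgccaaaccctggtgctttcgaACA
Gm26003, chr2:158358360-158358472, minus strand, in Snhg17: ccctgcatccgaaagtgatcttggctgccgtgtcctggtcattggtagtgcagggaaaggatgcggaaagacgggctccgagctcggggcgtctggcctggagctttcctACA
Gm23925, chr2:158359798-158359929, minus strand, in Snhg17: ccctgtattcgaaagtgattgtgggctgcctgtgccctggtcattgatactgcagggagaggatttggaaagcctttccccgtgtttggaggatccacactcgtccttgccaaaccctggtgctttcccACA
Snora24, chr3:123507937-123508066, minus strand, in Snhg8: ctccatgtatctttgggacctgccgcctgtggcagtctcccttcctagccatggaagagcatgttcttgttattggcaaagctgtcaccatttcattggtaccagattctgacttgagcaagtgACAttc
The letters were found in 10 of the 34, against 30.7% of the 697. Gm24411, Gm26003 and Gm23925, all in Snhg17, begin alike and are related copies, and Gm23925 shares 99.0% of its 31-base words with genes other than Snhg17.

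The hosts were compared first. Of the 8 hosts tested, 5 were lower in Srrm2+/- and none was higher by edgeR's quasi-likelihood test at an adjusted p under 0.05 (at an unadjusted p under 0.05 the counts were the same). Over all 18905 genes tested, 11.7% passed the test as lower and 13.6% as higher. DESeq2 called 4 of the 8 and limma voom 5, all lower. The hosts had a median value of -0.17 on the log2 scale, beside -0.0025 over all genes tested. No host reached an absolute log2 fold change of 1, which 6.10% of all genes did with an adjusted p under 0.05. In a bulk library fewer cells of one kind and less RNA per cell cannot be told apart.

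Snhg5 differed most among the hosts. It was at 113, 127 and 124 CPM in WT and at 83.9, 74.3 and 71.4 CPM in Srrm2+/-, a log2 fold change of -0.66 ± 0.067 (SE; adjusted p = 0.000156). Every Srrm2+/- library was below every WT library, and the fitted level in Srrm2+/- was 63.1% of that in WT. Snhg5 lies at chr9:88521050-88522929 on the minus strand. A share of 11.9% of its 31-base words also occurs in transcripts of 9330159M07Rik, whose log2 fold change was -0.18 ± 0.10 (adjusted p = 0.244).

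Snhg3, the host of the U17 snoRNAs, was at 24.1, 26.4 and 21.8 CPM in WT and at 18.1, 17.4 and 18.8 CPM in Srrm2+/-. The groups did not overlap, and the log2 fold change was -0.41 ± 0.073 (adjusted p = 0.00341). Snhg3 lies at chr4:132348014-132353686 on the minus strand. Counted on both strands, 60.7% of its words also occur in the transcript Gm17300, which lies within its span on the plus strand. Any division of reads between the 2 rows is an estimate. It depends on whether the estimation program used the strand, which the study's methods do not state. Gm17300 had a log2 fold change of -0.19 ± 0.065 (adjusted p = 0.0682), and Rcc1, a coding gene overlapping Snhg3 that encodes the exchange factor of the GTPase Ran, rose by 0.16 ± 0.039 (adjusted p = 0.0170).

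Snhg12, on the same chromosome as Snhg3 but on the plus strand (chr4:132308623-132311024), was at 60.1, 69.9 and 66.9 CPM in WT and at 52.4, 56.6 and 54.7 CPM in Srrm2+/-. Its fall of 0.27 on the log2 scale (SE 0.060, adjusted p = 0.0111) left 83.2% of the WT level, again without overlap. Snhg6 (chr1:9941959-9944118, minus strand) was at 61.0, 62.9 and 62.8 CPM in WT and at 55.6, 54.6 and 52.8 CPM in Srrm2+/- (log2 fold change -0.20 ± 0.039, adjusted p = 0.00668). The change in Snhg6 was small, but the spread among its libraries was smaller still.

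Snhg15 (chr11:6525591-6528760, minus strand) was at 56.2, 58.8 and 59.0 CPM in WT and at 54.4, 51.2 and 52.8 CPM in Srrm2+/-. Its log2 fold change of -0.14 ± 0.042 was at the edge of the threshold (adjusted p = 0.0446). The call was lost in DESeq2 (adjusted p = 0.0560) and on leaving out WT replicate 2 (0.124) or 3 (0.143) or Srrm2+/- replicate 1 (0.0517), 2 (0.151) or 3 (0.120).

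Gas5, first known as a transcript that accumulates in growth-arrested cells, was the highest of the hosts and did not pass the test. It was at 637, 634 and 653 CPM in WT and at 598, 618 and 618 CPM in Srrm2+/- (log2 fold change -0.07 ± 0.037, adjusted p = 0.213). The libraries of the 2 groups did not overlap even so, which makes 6 of 8 hosts with all Srrm2+/- libraries below all WT libraries, beside 20.0% of all genes tested. No host had all Srrm2+/- libraries above all WT libraries, beside 21.4% of all genes tested. Snhg17 was at 62.8, 61.0 and 65.1 CPM in WT and at 62.5, 60.5 and 58.3 CPM in Srrm2+/- (log2 fold change -0.06 ± 0.044, adjusted p = 0.381), and its groups overlapped. Snhg18, with 38 to 87 counts per library, was at 1.10, 0.657 and 0.803 CPM in WT and at 1.26, 0.928 and 1.13 CPM in Srrm2+/-, and its value of 0.38 ± 0.24 did not pass the test (adjusted p = 0.307).

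**Figure D1:**
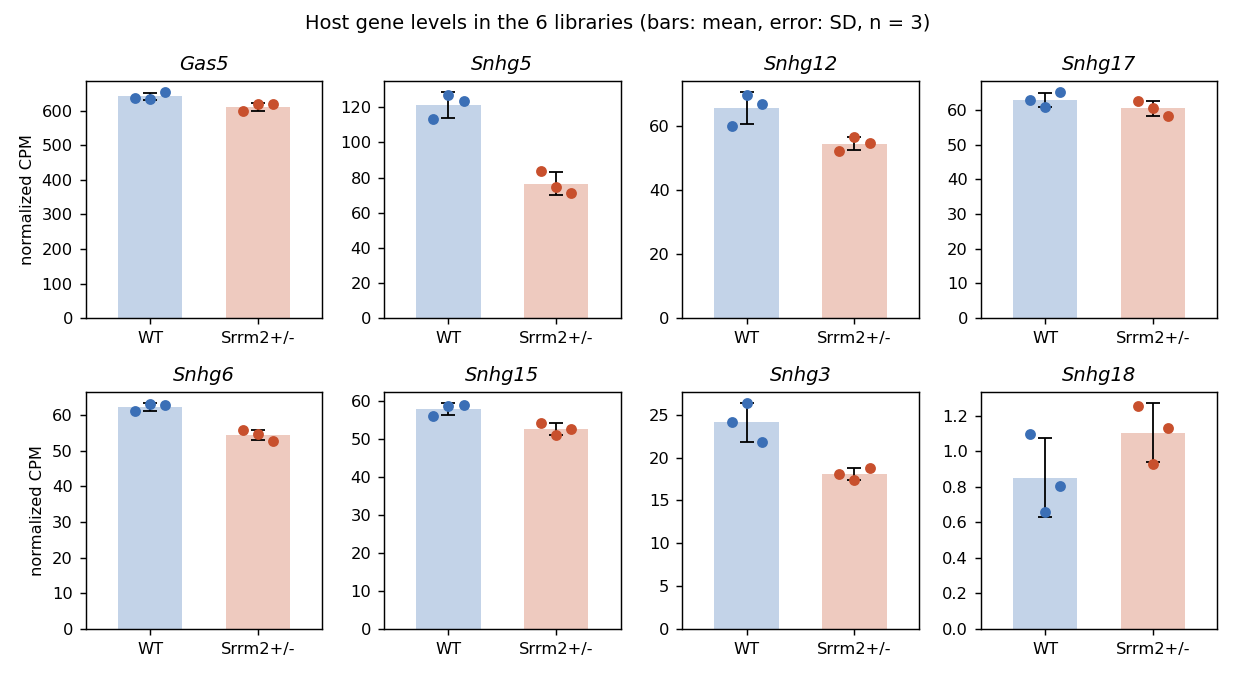
Normalised CPM (vertical axes, each from 0) of the 8 hosts in the 3 WT and 3 Srrm2+/- libraries, with points for libraries, bars for means and error bars for SD. The points separate most clearly for Snhg5, which was at 113 to 127 CPM in WT and 71.4 to 83.9 CPM in Srrm2+/-, and overlap for Snhg17 and Snhg18.

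Per kilobase of annotated exon, the order of the hosts in WT was Gas5 (171 ± 2.62 CPM per kb, SD, n = 3), Snhg5 (70.1 ± 4.14), Snhg6 (54.3 ± 0.958), Snhg15 (42.7 ± 1.16), Snhg12 (27.3 ± 2.09), Snhg3 (24.5 ± 2.30), Snhg17 (8.93 ± 0.290) and Snhg18 (0.574 ± 0.152). Only Snhg12 and Snhg3 overlapped as neighbours in this order. The length used counts every base that is exon in any annotated transcript, so the order depends on the annotation. Snhg17 and Snhg6 had means of 63.0 and 62.2 CPM in WT, with lengths of 7052 and 1146 bases. In Srrm2+/- Snhg5 stood at 44.2 ± 3.77 and Snhg6 at 47.4 ± 1.24 CPM per kb, and the libraries of these 2 overlapped. The remaining hosts kept their places, from 163 ± 3.10 for Gas5 to 0.745 ± 0.112 for Snhg18.

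The snoRNAs within the hosts were examined next. Of the 34 snoRNA genes, 32 had a row of their own in the table, and the second annotated copies of Snord80 and Snora16a are not analysed here. For 14 of the 32 every library was at 0 estimated counts, where by sampling alone a count of 0 allows up to 3 counts per library. Reads that the estimation program gave to the host are not covered by that limit. These 14 were 60 to 80 nt long (median 72 nt). They included 7 of the 8 snoRNAs of Snhg1, 5 of the 9 of Gas5 with a row, and both U50 snoRNAs of Snhg5, so the host with the clearest fall had no snoRNA with counts. The 18 with some counts were 71 to 205 nt long (median 128 nt), and 15 of them passed the filter on low counts.

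**Figure D2:**
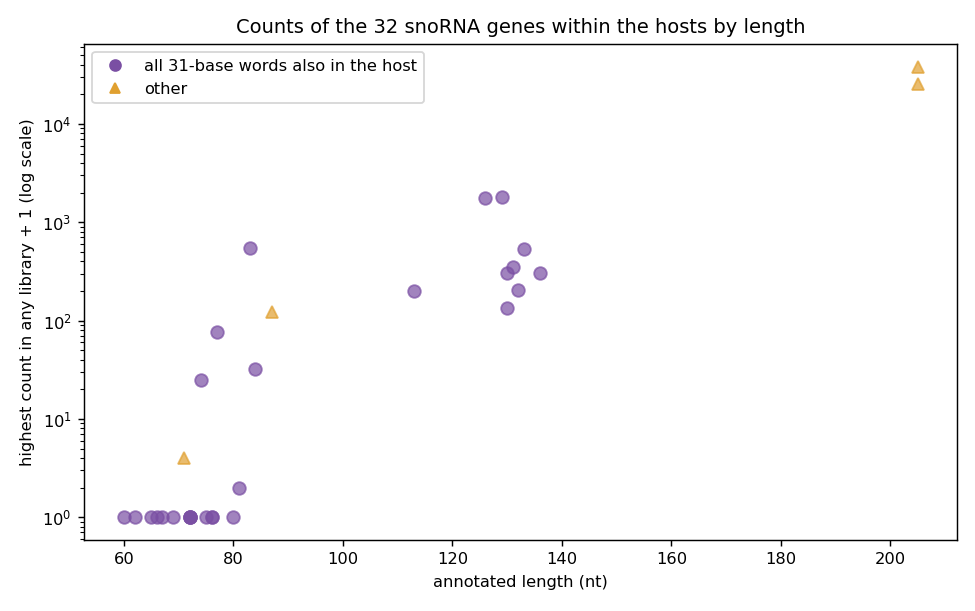
Highest count in any library plus 1 (vertical, log scale) against annotated length in nt (horizontal) for the 32 snoRNA genes with a row. The 14 at 0 counts lie between 60 and 80 nt, and the points at 205 nt are Snora73a and Snora73b.

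Of the 15 snoRNAs tested, 11 were lower in Srrm2+/- and none was higher, and their median log2 fold change was -1.63. Among the 217 snoRNA and small Cajal body RNA genes tested that lie outside these hosts, 91 were lower and 1 was higher, with a median of -0.54. A tested snoRNA had to have counts in one group to pass the filter, so the 15 are not all 34. Snora24, Snord99 and Snord47 passed it through their WT counts alone, so a lower value was built in for them. Snora24 and Snord99 are among the 11 called. Counts at these rows are estimates. For 12 of the 15, every 31-base word of the snoRNA also occurs in an annotated transcript of its own host that keeps the intron. Where its index holds both, the estimation program Kallisto divides the reads between them. For Snord22 and Snora24, whose hosts Snhg1 and Snhg8 had no matched row, such a division cannot be checked. Of these 12, 11 were called lower (median -1.77), whereas 0 of the 3 others were (median -0.30; Snord87, Snora73a and Snora73b, the last 2 at an unadjusted p under 0.05). Among the other intronic snoRNAs of the table, 28 of 33 with at least 95% of their words in the host were called lower (median -1.59), as were 49 of 146 with under 5% (median -0.45). Between these limits 6 of 12 were called lower (median -0.83). These lists also hold genes with counts in WT alone, for which a lower value was built in. Snora65 and Snord33 (at least 95%) and Gm24539 (under 5%) are examples. The words were counted on GENCODE M21, whereas the study's methods name release M24, so the transcripts that the authors' index held may differ.

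Snhg12 carried 4 tested snoRNAs, and all 4 were lower, although for Snord99 a lower value was built in by the filter. Snora44, the most abundant of them, was at 29.0, 31.2 and 15.9 CPM in WT and at 7.09, 7.60 and 8.57 CPM in Srrm2+/- (log2 fold change -1.71 ± 0.22, adjusted p = 0.000632). WT replicate 3 was well below the other WT libraries but still above all Srrm2+/- libraries. Snora16a was at 5.50, 4.71 and 1.94 CPM in WT and at 0.173, 0.479 and 0.972 CPM in Srrm2+/-, a log2 fold change of -2.92 ± 0.54 (adjusted p = 0.00448), and all of its words also occur in other genes, the second annotated copy of Snora16a among them. Without Srrm2+/- replicate 3 its log2 fold change was -3.63. Snora61 was at 4.27, 5.26 and 4.50 CPM in WT and at 1.26, 0.276 and 1.67 CPM in Srrm2+/- (-2.14 ± 0.46, adjusted p = 0.00879). The only C/D snoRNA of this host, Snord99, rested on few reads, with 12, 16 and 24 counts in the WT libraries, and 3, 0 and 1 in the Srrm2+/- libraries (-3.84 ± 0.72, adjusted p = 0.00454), and without Srrm2+/- replicate 1 its value was -5.01. Beside the values of Snora44, Snora16a and Snora61 the fall of 0.27 in the Snhg12 row itself was small.

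Snhg17 and Snhg15 showed the same order of sizes. The 3 snoRNAs of Snhg17 were all lower while the host row did not pass the test. Gm24411 was at 3.86, 6.07 and 2.56 CPM in WT and at 1.17, 1.49 and 1.59 CPM in Srrm2+/- (log2 fold change -1.56 ± 0.29, adjusted p = 0.00487). Gm26003 was at 3.41, 3.43 and 1.77 CPM against 0.564, 0.638 and 1.25 CPM (-1.82 ± 0.35, adjusted p = 0.00533). Gm23925 was at 2.88, 3.49 and 2.45 CPM against 0.636, 1.13 and 1.33 CPM (-1.51 ± 0.27, adjusted p = 0.00328). None of the 3 overlapped between groups. Snora9, the single snoRNA of Snhg15, was at 7.78, 9.29 and 5.83 CPM in WT and at 1.66, 2.39 and 3.35 CPM in Srrm2+/- (-1.63 ± 0.25, adjusted p = 0.00173).

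In Gas5 only 2 of the 9 snoRNAs with a row were tested. Gm22357 was at 7.44, 9.48 and 9.88 CPM in WT and at 3.05, 3.57 and 6.29 CPM in Srrm2+/- (log2 fold change -1.06 ± 0.25, adjusted p = 0.0132), and without Srrm2+/- replicate 2 the call was lost (adjusted p = 0.0547). For Snord47 the WT libraries held 46, 17 and 76 counts, the Srrm2+/- libraries 8, 7 and 25. Its groups overlapped and it just missed the threshold (-2.04 ± 0.66, adjusted p = 0.0509), which it passed without WT replicate 2 (0.0198) or Srrm2+/- replicate 3 (0.0249) and in DESeq2 (0.00486). Its log2 fold change was -2.93 without Srrm2+/- replicate 3 and -1.44 without WT replicate 3. Snord80 and Mir5117, the latter annotated as a snoRNA under a miRNA symbol, had counts in 1 library each and were not tested.

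Snord22 and Snora24 lie in Snhg1 and Snhg8, whose own rows are not analysed here. Snord22 (U22) is needed for processing of 18S ribosomal RNA. It had 1649, 1753 and 757 estimated counts in the WT libraries, and 627, 903 and 623 in the Srrm2+/- libraries. Its CPM values were 29.7, 30.3 and 14.1 in WT and 9.06, 13.1 and 10.1 in Srrm2+/- (log2 fold change -1.20 ± 0.26, adjusted p = 0.0101). The lowest WT library stood only slightly above the highest Srrm2+/- library. Snora24 had 103, 133 and 20 counts in WT and 0 in each Srrm2+/- library (adjusted p = 0.00263). Its mean WT level was 33.4-fold that of 3 counts per Srrm2+/- library, although WT replicate 3 was at only 0.373 CPM. That floor covers sampling alone, not reads divided with transcripts of Snhg8. As Snora24 passed the filter through WT alone, the size of its fall stays uncertain.

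Snhg3 and Snhg6 gave other values. In Snhg3 the U17 snoRNAs were far more abundant than the host, Snora73a with 27577 to 38339 counts and Snora73b with 12944 to 25279 counts per library. Snora73a was at 497, 661 and 648 CPM in WT and at 456, 556 and 452 CPM in Srrm2+/- (log2 fold change -0.30 ± 0.12, adjusted p = 0.0901). Snora73b was at 339, 437 and 321 CPM in WT and at 218, 330 and 210 CPM in Srrm2+/- (-0.53 ± 0.18, adjusted p = 0.0545). Both overlapped between groups. The span of Rcc1, on the same strand, holds both snoRNAs as well. Counted on both strands, 88.6% of the words of Snora73a and 100% of those of Snora73b occur in genes other than Snhg3 and Rcc1. These are mainly words of Gm17300 on the opposite strand. The other of the pair is also among these genes, so the counts of both are uncertain. Snora73b passed the threshold without Srrm2+/- replicate 2 (adjusted p = 0.00496), and Snora73a without that library (0.0464) or without WT replicate 1 (0.0115). In Snhg6, Snord87 was at 1.62, 1.66 and 1.46 CPM in WT and at 1.76, 1.65 and 1.35 CPM in Srrm2+/- (log2 fold change 0.01 ± 0.17, adjusted p = 0.979). Snord87 is the only tested snoRNA here none of whose words occurs in its host. Snord123 in Snhg18 had at most 3 counts in any library and was not tested.

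**Figure D3:**
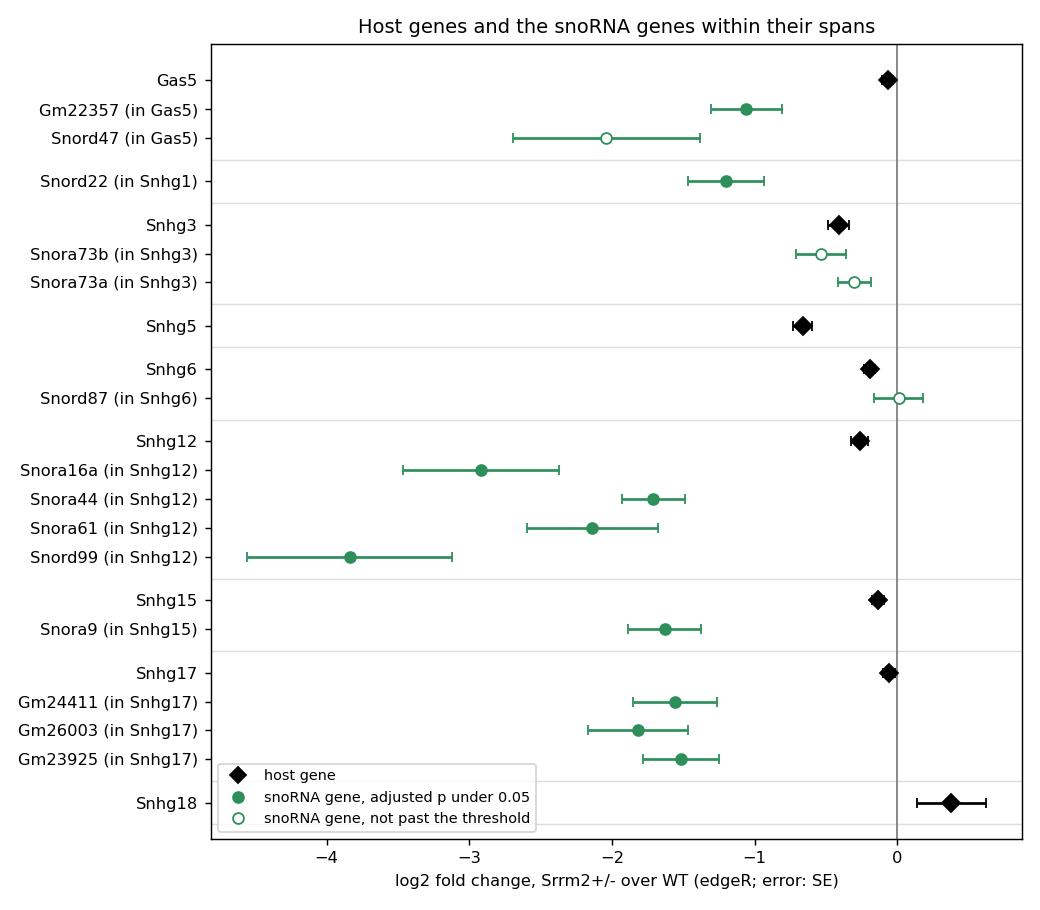
Log2 fold change of Srrm2+/- over WT (horizontal, edgeR, error bars SE) for the 8 hosts (black diamonds) and 14 of their 15 tested snoRNAs (green circles, filled where the adjusted p was under 0.05), leaving out Snora24, which had no counts in Srrm2+/-. The hosts lie between -0.66 and 0.38, whereas the filled snoRNA circles lie between -3.84 and -1.06. The circle at -3.84 is Snord99, which passed the filter through its WT counts alone.

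Within one library the snoRNA counts can be set against the host counts, which removes the library size. Summed snoRNA counts per 100 host counts were 64.8, 59.3 and 34.1 in WT and 16.4, 14.8 and 20.5 in Srrm2+/- for Snhg12. For Snhg15 they were 13.9, 15.8 and 9.88 in WT and 3.07, 4.69 and 6.37 in Srrm2+/-, and for Snhg17 16.2, 21.3 and 10.4 in WT and 3.80, 5.40 and 7.16 in Srrm2+/-. In all 3 the groups did not overlap, and the differences of the mean log2 ratio were -1.57, -1.52 and -1.54. Gas5 had 1.30, 1.54 and 1.73 snoRNA counts per 100 host counts in WT and 0.531, 0.667 and 1.09 in Srrm2+/-, a difference of -1.06 without overlap. For these 4 hosts the two-sided exact permutation test gave p = 0.1, the smallest that 3 against 3 libraries allow (adjusted p = 0.15 over 6 hosts), so the design cannot reach the threshold. Snhg3 had 3460, 4164 and 4434 snoRNA counts per 100 host counts in WT and 3719, 5078 and 3521 in Srrm2+/- (difference 0.02, exact p = 0.9). Snhg6 had 2.67, 2.65 and 2.33 in WT and 3.18, 3.04 and 2.56 in Srrm2+/- (difference 0.19, exact p = 0.3). These 2 hosts, where the ratio overlapped between groups, are those whose tested snoRNAs had not all of their words in the host. The snoRNAs of Snhg3 were also the most abundant of those tested. The part of shared words or of abundance was not tested.

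**Figure D4:**
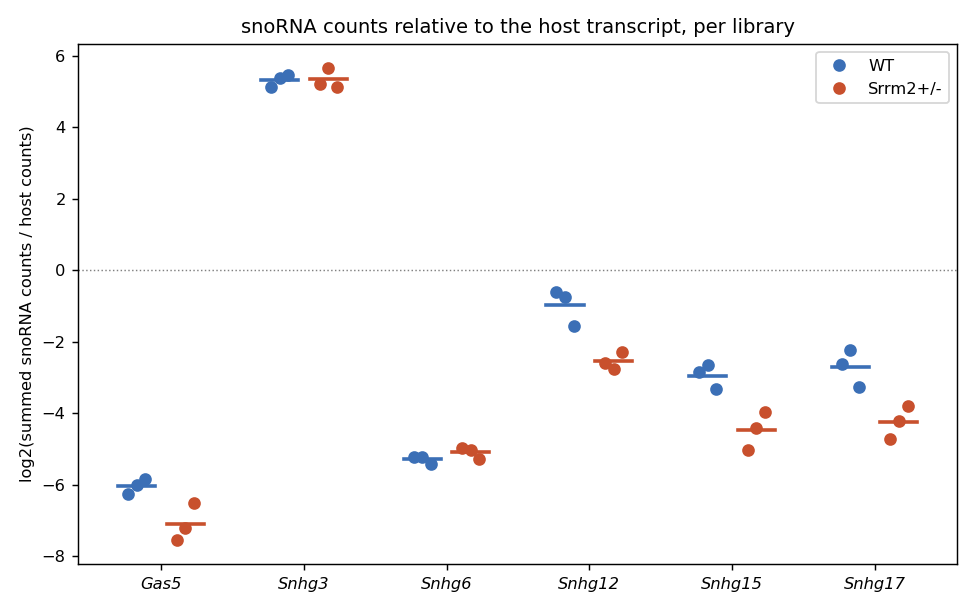
Log2 of summed snoRNA counts over host counts (vertical, 0.5 added to each) in each library for the 6 hosts with both, with horizontal lines for group means. The Srrm2+/- points lie below all WT points in Gas5, Snhg12, Snhg15 and Snhg17 and overlap them in Snhg3 and Snhg6.

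Adding the snoRNA counts to the host row before the fit avoids the division of reads within a locus. On this sum Snhg12 fell by 0.65 on the log2 scale (SE 0.074, adjusted p = 0.000305), Snhg15 by 0.25 (SE 0.042, adjusted p = 0.00272) and Snhg17 by 0.20 (SE 0.037, adjusted p = 0.00463). Snhg17, which did not pass the test as a host row alone, did so as a sum. Snhg3 moved the other way, to -0.39 ± 0.12 with an adjusted p of 0.0478, and Snhg6 was at -0.19 ± 0.040 (adjusted p = 0.00780). The sum of Snhg3 was almost wholly snoRNA counts, 46383 beside 1340 host counts in WT replicate 1. It thus describes Snora73a and Snora73b rather than the host row. Gas5 stayed at -0.08 ± 0.037 (adjusted p = 0.158), since its snoRNAs made up little of the sum.

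Many snoRNA hosts begin with a run of pyrimidines, the 5′ terminal oligopyrimidine tract that ties translation to growth signals. RefSeq (GRCm38.p6) gives 11 start sites for 9 of the hosts, and Snhg6 had no entry. The longest run of C and T within 10 bases of the start was searched on the transcribed strand, and its median was 6 over the 11 starts and 4 over 32851 starts of all genes. The windows of 15 bases before and 40 bases from the start are shown for the most abundant host, for the hosts with the clearest fall and with the most tested snoRNAs, and for one near the threshold, with the run in capitals.
Gas5, chr1:161035151-161035205, plus strand: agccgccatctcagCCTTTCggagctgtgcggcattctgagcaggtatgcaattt
Snhg5, chr9:88522858-88522912, minus strand: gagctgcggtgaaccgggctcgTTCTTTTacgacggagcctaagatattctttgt
Snhg12, chr4:132308663-132308717, plus strand: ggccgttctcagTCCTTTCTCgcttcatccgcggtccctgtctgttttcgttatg
Snhg15, chr11:6528721-6528775, minus strand: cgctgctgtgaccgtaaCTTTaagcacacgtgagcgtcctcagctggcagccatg
The run of Snhg12 was 9 bases long, a length reached at 9.55% of all starts, and that of Snhg5 was 7 (19.7%). That of Gas5 at this start was 6 (29.2%) and that of Snhg15 was 4 (63.9%). Counted from the start base, the run began at 7 in Snhg5 and at 2 in Snhg15, inside the transcript rather than at its end. It began at -3 in Snhg12 and at -1 in this Gas5 start. The other Gas5 start had a run of 3 (82.9%), and the 2 starts of Snhg17 had runs of 3 and 6. The longest run, of 10 bases, stood at the start of Snhg18, the host with the highest fold change, which did not pass the test. A relation between the length of the run and the fold change was not tested.

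Genes that act on snoRNAs or on their hosts were compared in the same fit. Of 8 core proteins of snoRNA particles, 2 were lower and 1 was higher (median log2 fold change 0.04). Dkc1, the pseudouridine synthase of H/ACA particles, fell by 0.41 (SE 0.044, adjusted p = 0.000240), from 409 ± 11.7 CPM to 309 ± 12.6 CPM (SD, n = 3). Nop56, a core protein of C/D particles, fell by 0.25 (SE 0.049, adjusted p = 0.00624), and Nhp2, of H/ACA particles, rose by 0.15 (SE 0.045, adjusted p = 0.0397). Of 15 factors of nonsense-mediated decay and the exon junction complex, only Eif4a3, the helicase that anchors that complex, was called (0.17 ± 0.043, adjusted p = 0.0200), and the median was -0.02. Of 8 enzymes that open introns or degrade RNA, Parn, a deadenylase that trims H/ACA snoRNAs (0.21 ± 0.044, adjusted p = 0.00850), and Exosc3, a subunit of the exosome (0.21 ± 0.053, adjusted p = 0.0184), rose, and Dcp2, the decapping enzyme, fell by 0.34 (SE 0.061, adjusted p = 0.00368). The numbers called in the 3 lists, 3 of 8, 1 of 15 and 3 of 8, stand beside 25.3% over all genes in either direction.

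Of 25 other hosts tested that are non-coding by name or annotated type, 4 were lower and 4 were higher (16% each), with a median of -0.10. Cct6a, which encodes a chaperonin subunit, is in this list by its annotated type and was not called. Among the lower ones were Snhg20 (-0.44 ± 0.067, adjusted p = 0.00157), A830008E24Rik (-0.54 ± 0.13, adjusted p = 0.0163) and Epb41l4aos (-0.22 ± 0.062, adjusted p = 0.0287). Rian (0.54 ± 0.051, adjusted p = 0.000111) and Snhg14 (0.54 ± 0.081, adjusted p = 0.00151), the imprinted hosts of large snoRNA clusters, rose, as did Gm37899 (0.41 ± 0.074, adjusted p = 0.00383). Of 253 coding hosts tested, 22 were lower (8.70%) and 35 were higher (13.8%), with a median of 0.00115. The shares over all genes tested were 11.7% lower and 13.6% higher, close to those of the coding hosts. Of their 30 ribosomal protein genes, Rpl7a rose by 0.27 (SE 0.041, adjusted p = 0.00147) and Rpl39 fell by 0.18 (SE 0.040, adjusted p = 0.0119), and the other 28 did not pass the test. The difference between the 8 hosts described here and these other hosts was not tested.

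The genes whose log2 CPM over the 6 libraries was most like the mean of the 8 hosts, among 12061 genes compared, were St8sia6, Impa2, Lrrc15, Zfp704 and Pgc, each with a Pearson correlation of 0.997 or 0.998. These correlations rest on 6 libraries in 2 groups and describe mainly the step between WT and Srrm2+/-. The 5 genes had log2 fold changes from -1.03 ± 0.16 (Lrrc15) to -0.44 ± 0.061 (Impa2).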

How the data were processed

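Total RNA was sequenced from 3 WT and 3 Srrm2+/- cultures of mouse embryonic stem cells with a stranded kit as 75 bp paired-end reads. The authors estimated transcript abundances with Kallisto (0.46.1; build mm10 per the labels) and deposited estimated counts per gene, which need not be whole. Kallisto divides reads that fit several transcripts, so values of genes sharing sequence are linked. The study's methods name GENCODE M24. Here GENCODE M21 was used, to which 42156 of 42450 identifiers matched. The highest identifier number in the table was 104527, against 118393 in M21, and the rows of Snhg1 and Snhg8 are not analysed here.

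Counts were rounded to whole numbers. Genes were filtered with edgeR's filterByExpr (minimum count 10, minimum total 15), normalised by TMM and tested by edgeR (4.0.16, R 4.3.3) with genotype as the only term, two-sided, and p-values were adjusted by Benjamini-Hochberg over all 18905 genes tested, with a threshold of 0.05. CPM values use the TMM-scaled library size. The scripts were tested on simulated data. Ratios of summed snoRNA to host counts (0.5 added) were compared by exact permutation. Shared words of 31 bases were counted between M21 transcripts of different genes, on both strands. DESeq2 (1.42.0), limma voom (3.58.1), other normalisations, filters and thresholds, the replicate block and leaving out each library were tried as alternatives. Named genes were Srrm2, the 10 hosts, the snoRNA genes on their strand within their spans, at most 3 highest and 3 lowest called genes of each list, and the 5 genes most like the hosts' mean among genes whose log2 CPM averaged 1 or more. Genes with which a host shares words or overlaps, and Cct6a, were added after their values were seen. Members and lists were chosen with earlier results of these data known. Replicates were frozen at different passages, and p-values measure the spread between these libraries. Every library pair differed by more than counting noise (chi-square over its degrees of freedom 13.51 or above), with Pearson correlations of log2 CPM of 0.985 to 0.989 within and 0.971 to 0.975 between groups.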

Additional observations from a re-analysis of the deposited data

How the results depend on the processing

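Snhg3, Snhg5, Snhg6 and Snhg12 kept their call under each other normalisation, test, filter and left-out library, with the replicate block, with short RNA genes removed and with host and snoRNA counts summed. For Snhg3 that sum was almost wholly snoRNA counts and says little about the host row. The number of hosts called was 4 to 6 of 8 under the other normalisations, tests, filters, left-out libraries and sums, 3 at an adjusted p under 0.01 and 0 when a log2 fold change of at least 1 was also asked for. The median over the hosts was -0.22 with host and snoRNA counts summed. The count of snoRNAs called was 9 to 14 of those tested, but it was 6 of 8 among those with under 5% of words in unrelated genes and 0 of 1 among those with under 5% in the host, where fewer genes are tested by construction. Of the coding hosts 33 were called at an adjusted p under 0.01 and 9 with a log2 fold change of at least 1. Replicate numbers did not pair the samples (correlations of deviations -0.03, -0.03 and -0.03). With the replicate block 4 hosts and 14 snoRNAs were called, Snhg15 was not (adjusted p = 0.0912), Snord47 (0.0106), Snora73a (0.0364) and Snora73b (0.00122) were, and 53 coding hosts were called instead of 57. With a filter of 1 count Snhg15 was not called (adjusted p = 0.0900), while Snord47 (0.0289) and Snora73b (0.0263) were. Snora73b was also called by limma voom (0.0454) and with the filter of 1 CPM (0.04997). The ratio without Snhg3 was chosen after seeing the data, and its median over hosts moved from -1.29 to -1.52. WT replicate 3 was the lowest WT library in 10 of the 15 tested snoRNAs, and without it 11 were called. Depth limits Snord99, Snord47 and Snhg18, each under 100 counts per library.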
